A study of Mus musculus with 9 samples.

Results

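The mucins and the goblet cell programme comprised 10 genes picked by symbol: the mucins Muc5ac, Muc5b, Muc2, Muc19 and Muc4, the secreted goblet cell products Clca1 and Fcgbp, the mucin chaperone Agr2, and the transcription factors Spdef and Foxa3. Of these 10, 9 had a probe set annotated to that gene alone, out of 19938 genes with such a probe set on the Affymetrix Mouse Gene 1.0 ST array. Fcgbp was represented only in probe sets shared with other genes and therefore has no value of its own. Clca3 is an older symbol of Clca1, which has also been called gob-5. Where a gene had several probe sets, which among the 9 was true of Muc19 alone, the one with the highest mean over the 9 arrays was used.

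The arrays measured nasal mucosa of BALB/c mice in an allergic rhinitis model, with 3 arrays in each of 3 groups. The 4-week mice received ovalbumin (OVA), a hen egg protein, for sensitisation and challenge, and their tissue was taken 4 weeks after the final challenge. The OVA mice had the same treatment with tissue taken 2 hours after the final challenge, and the control mice received saline in place of ovalbumin at both steps. Every mouse is labelled male and aged 6 to 8 weeks; the labels name no genetic alteration, and they do not say whether an array held RNA of 1 mouse or of several, so the spread behind each p-value is that between arrays and may be technical. The same age is given for groups sampled 2 hours and 4 weeks after the final challenge, so it need not be the age at sampling. Any age difference at sampling would go together with time since challenge. For the control mice no sampling time is given here.

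Airway mucus is built from gel-forming mucins, very large glycoproteins that are folded and cross-linked in the endoplasmic reticulum, coated with O-linked sugars in the Golgi and stored in granules of goblet and gland cells. Muc5ac is the mucin typical of surface goblet cells in allergic airways and Muc5b that of glands and of the resting airway. In allergic airway disease, IL-13 acting through STAT6 raises the goblet cell factor Spdef, and Spdef, Agr2, Clca1 and Foxa3 are known parts of the response that turns secretory cells into mucus-filled goblet cells. Because the arrays measured whole tissue, more cells of a type and more RNA per cell cannot be told apart.

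All values below are log2 expression values made by the authors with RMA (robust multi-array average, which corrects background, equalises the arrays and sums up the probes of a probe set), so a difference of 1 is a factor of 2. Array medians ran from 6.38 to 6.45, and arrays of the same group correlated over the tested probe sets at r = 0.986 to 0.992. The 3 arrays labelled control carried a female pattern although labelled male. Xist, which silences an X chromosome in female cells, lay between 4.27 and 4.42 on the 4-week arrays and between 4.22 and 4.36 on the OVA arrays, against 10.62 to 11.11 on the control arrays. The Y-linked gene Uty lay between 7.49 and 7.74 on the 4-week arrays and between 7.06 and 7.63 on the OVA arrays, against 3.31 to 3.55 on the control arrays. Treatment and sex pattern therefore cannot be told apart in any comparison with the control arrays; the 4-week and OVA arrays share the male pattern. Transcripts that mark nasal mucosa were present at high signal in every group: the summed signal of 6 olfactory neuron markers was 13.93 to 14.29 (log2) at 4 weeks, 13.96 to 14.12 in OVA and 14.20 to 14.41 in control, and that of 13 gland markers was 15.12 to 15.77, 15.40 to 15.59 and 15.33 to 15.60 in the same groups. These sums are carried by the brightest genes: among the gland markers Bpifb9a, a secreted BPI fold protein, stood at 5.12, 5.82 and 8.21 on the OVA arrays, against 9.87, 11.57 and 12.10 on the control arrays. Bpifb9a fell by 4.80 on the log2 scale in OVA relative to control (SE 0.88, adjusted p = 0.0415), a call lost in 6 of 9 fits that left out an array and in 4 of 9 other alternatives, and its relative Bpifb9b had -4.71 (adjusted p = 0.05, not under the threshold). Of the 6 olfactory neuron markers 0 were higher in OVA than in control (median -0.2), and their OVA sums lay below the control sums. At 4 weeks against control 1 of the 6 passed, where 14.4% of all probe sets did. It was Gnal, which fell by 0.44 on the log2 scale (adjusted p = 0.0349 in limma). That call was lost in 7 of 9 fits that left out an array and in 4 of 9 other alternatives. The part of these markers in the mucin values was not tested.

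Among the gel-forming mucins, Muc5ac had the widest spread. It stood at 9.05, 8.10 and 7.67 on 4-week replicates 1, 2 and 3, at 10.66, 9.13 and 9.47 on OVA replicates 1, 2 and 3, and at 9.72, 8.28 and 6.19 on control replicates 1, 2 and 3. The OVA arrays all lay above the 4-week arrays, while the control arrays ran from the lowest of all 9 values to the second highest. Between control replicates 1 and 3 Muc5ac differed by 3.52, more than between any group means. The OVA minus control difference was 1.69 (SE 0.80, n = 3 per group), with a 95% interval of -0.12 to 3.50, and did not pass (adjusted p = 0.336 in limma). It was 0.76 without control replicate 3 and 2.52 without control replicate 1, and neither passed. The 4-week minus OVA difference was -1.48 (interval -3.29 to 0.33, adjusted p = 0.297), and the 4-week minus control difference was 0.21 (interval -1.60 to 2.02), which turned to -0.73 without control replicate 3.

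Muc5b, whose gene lies next to Muc5ac, was more even. Muc2, Muc5ac and Muc5b lie in that order on mouse chromosome 7, at 141690340 to 141754691, 141788958 to 141819227 and 141839059 to 141873089 of assembly GRCm38.p6. Muc5b stood at 11.68, 11.67 and 11.98 on the 4-week arrays, at 12.17, 11.48 and 12.35 on the OVA arrays and at 11.57, 11.45 and 11.28 on the control arrays. OVA replicates 1 and 3 held the highest values of all, whereas OVA replicate 2 fell among the control arrays, and all 4-week arrays lay above all control arrays. The OVA minus control difference was 0.57 (SE 0.20, interval 0.11 to 1.03, adjusted p = 0.217). Without OVA replicate 2 it was 0.83 and passed (adjusted p = 0.0373), so that array alone set the side of the threshold. The 4-week minus OVA difference was -0.23 (interval -0.69 to 0.23) and the 4-week minus control difference 0.34 (interval -0.12 to 0.80).

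Muc2, the main mucin of the intestinal goblet cell, passed in no comparison. It stood at 10.69, 10.30 and 10.34 on the 4-week arrays, at 10.88, 10.83 and 10.65 on the OVA arrays and at 10.61, 10.81 and 10.99 on the control arrays. OVA and control arrays overlapped, with a difference of -0.02 (interval -0.31 to 0.28), whereas the 4-week arrays held the 2 lowest values. The 4-week mean was 10.44 against 10.79 in OVA (difference -0.34, interval -0.64 to -0.04, adjusted p = 0.156) and 10.80 in control (difference -0.36, interval -0.66 to -0.06, adjusted p = 0.0963). The difference from control passed after quantile normalisation of the deposited values (-0.51, adjusted p = 0.0393) and without 4-week replicate 1 (-0.48, adjusted p = 0.0432).

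Muc19, a gel-forming mucin of salivary and submucosal glands in the mouse, was higher on every control array than on any other array. It stood at 4.46, 4.64 and 4.64 on the 4-week arrays and at 4.42, 4.64 and 4.68 on the OVA arrays, against 5.23, 4.77 and 5.13 on the control arrays. The highest 4-week and OVA arrays lay just under control replicate 2, the lowest control array. Muc19 fell by 0.47 on the log2 scale at 4 weeks relative to control (SE 0.13, fold 1.38, adjusted p = 0.0411), and the OVA minus control difference of -0.47 did not pass (adjusted p = 0.121). This call was fragile: it was lost in 7 of 9 fits that each left out 1 array (adjusted p up to 0.111) and in 7 of 9 other alternatives. A second Muc19 probe set had -0.14 at 4 weeks against control (adjusted p = 0.301), and the mean of both probe sets gave -0.31 (adjusted p = 0.0659). Smgc, a submucosal gland protein whose RefSeq entry lists Muc19 as a synonym, stood at 3.13 to 3.63 at 4 weeks and 3.30 to 3.69 in control (difference -0.10). Exactly the same Muc19 value occurred on 3 arrays, a repetition on 3 or more arrays that 27.7% of the 23410 tested probe sets showed, and the table holds no detection calls by which such low values could be judged.

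Muc4, a membrane-anchored mucin of ciliated and columnar cells, passed in no comparison. It stood at 7.39, 7.16 and 7.01 on the 4-week arrays, at 7.25, 7.47 and 6.74 on the OVA arrays and at 7.36, 7.09 and 6.30 on the control arrays. All groups overlapped, and the lowest value was again control replicate 3. The differences were 0.23 (interval -0.38 to 0.85, adjusted p = 0.715) for OVA minus control, 0.03 (interval -0.58 to 0.65, adjusted p = 0.955) for 4-week minus OVA and 0.27 (interval -0.35 to 0.88, adjusted p = 0.516) for 4-week minus control.

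**Figure D1:**
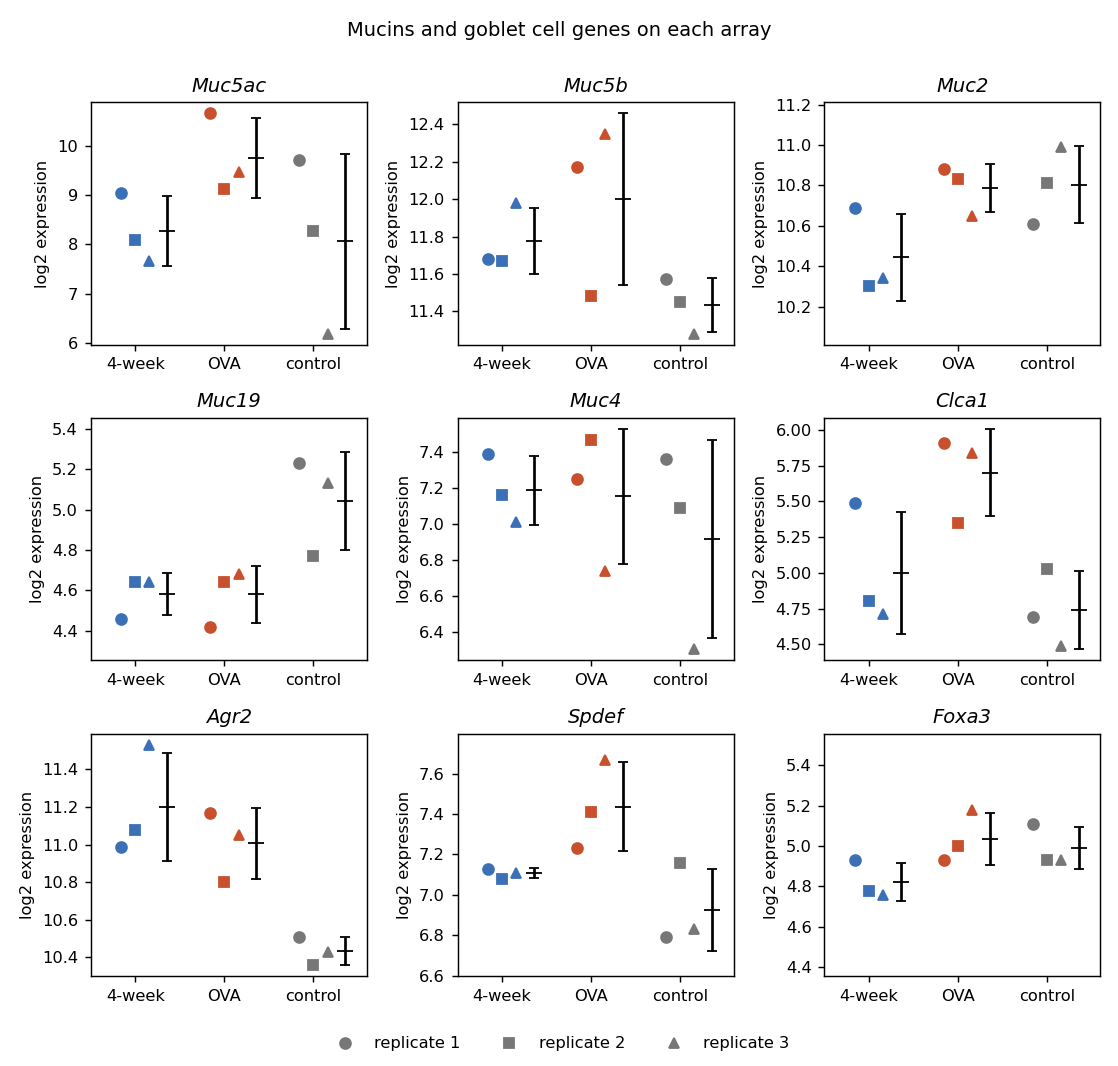
Log2 expression of the 9 measured genes, 1 panel each, with 4-week, OVA and control arrays from left to right; circles, squares and triangles are replicates 1, 2 and 3, and the black bar is the group mean ± SD (n = 3). Each panel has its own vertical scale. Agr2 separates the control arrays (10.36 to 10.51) from all others, and Muc5ac spreads from 6.19 to 9.72 within the control group.

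Clca1, a goblet cell protein secreted with mucus that is strongly induced by IL-13, was higher on every OVA array than on every control array without passing the test. It stood at 5.49, 4.80 and 4.71 on the 4-week arrays, at 5.91, 5.35 and 5.84 on the OVA arrays and at 4.69, 5.03 and 4.49 on the control arrays. The lowest OVA array, replicate 2, exceeded the highest control array, replicate 2, and 4-week replicate 1 was the only 4-week array within the OVA range. The OVA minus control difference was 0.96 (SE 0.23, interval 0.43 to 1.49, adjusted p = 0.0914) and the 4-week minus OVA difference -0.70 (SE 0.23, interval -1.23 to -0.17, adjusted p = 0.110). Without 4-week replicate 1 both passed, at 0.96 (adjusted p = 0.0498) and -0.95 (adjusted p = 0.0466). The 4-week minus control difference was 0.26 (interval -0.27 to 0.79). Every Clca1 value lay below the array medians (6.38 to 6.45), and there are no detection calls by which such low values could be judged.

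Fcgbp, a mucus protein that is covalently linked to Muc2 in the intestine, could not be read on its own. The probe set it shares with 9530053A07Rik stood at 6.67, 6.28 and 6.70 on the 4-week arrays, at 6.90, 6.52 and 7.12 on the OVA arrays and at 7.02, 6.72 and 6.35 on the control arrays, with all groups overlapping. The other probe sets that list Fcgbp also list Rpl41, a ribosomal protein gene, and were not used.

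Agr2 gave the clearest difference of the 9 genes. Agr2 is a protein disulfide isomerase of the endoplasmic reticulum that assists the folding of mucins. It stood at 10.99, 11.08 and 11.53 on the 4-week arrays and at 11.17, 10.80 and 11.05 on the OVA arrays, against 10.51, 10.36 and 10.43 on the control arrays. All 6 arrays of ovalbumin-treated mice lay above all 3 control arrays, and the control arrays differed among themselves by only 0.15. At 4 weeks Agr2 was 1.70-fold higher than in control (log2 change 0.77, SE 0.15, interval 0.44 to 1.10, adjusted p = 0.0119). The call held in all 9 fits that left out 1 array (adjusted p from 0.0151 to 0.0451, change 0.60 to 0.87) and in all 9 other alternatives (adjusted p from 0.00614 to 0.0292). In OVA the difference from control was 0.58 (SE 0.15, interval 0.24 to 0.91) and did not pass (adjusted p = 0.104), and the 4-week minus OVA difference was 0.19 (interval -0.14 to 0.52, adjusted p = 0.458). Both comparisons with control use the same control arrays, whose female pattern no alternative removed.

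The epithelial markers Epcam and Krt18 were, like Agr2, lower on all control arrays than on all other arrays. Epcam, an adhesion molecule of epithelial cells, stood at 9.40, 9.44 and 9.48 on the 4-week arrays and at 9.47, 9.20 and 9.20 on the OVA arrays, against 9.02, 8.80 and 8.70 on the control arrays. It rose by 0.60 at 4 weeks against control (adjusted p = 0.00792). Krt18, a keratin of columnar cells, rose by 0.48 (adjusted p = 0.017), a call lost with 1 of 9 alternatives that left out no array. Of 8 basal and columnar epithelial markers, 2 rose at 4 weeks against control and none fell, where 14.4% of all probe sets passed. None of the 8 passed in OVA minus control, where 1.30% of all probe sets did. The other 6 had differences of 0.02 to 0.49 at 4 weeks against control. The summed signal of the 8 was 12.44 to 12.49 at 4 weeks and 12.41 to 12.58 in OVA, against 11.99 to 12.31 in control. Their part in the Agr2 result was not tested.

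Spdef, the ETS factor required for goblet cell differentiation, was highest in OVA. It stood at 7.13, 7.08 and 7.11 on the 4-week arrays, at 7.23, 7.41 and 7.67 on the OVA arrays and at 6.79, 7.16 and 6.83 on the control arrays. The OVA arrays overlapped with neither of the other groups, though OVA replicate 1 exceeded control replicate 2 only narrowly. The OVA minus control difference was 0.51 (SE 0.13, interval 0.22 to 0.80, adjusted p = 0.100) and the 4-week minus OVA difference -0.33 (SE 0.13, interval -0.62 to -0.04, adjusted p = 0.157). Neither passed in any of the alternatives run (lowest adjusted p 0.0725 and 0.0957). The 4-week minus control difference was 0.18 (interval -0.11 to 0.47, adjusted p = 0.353).

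Foxa3, a forkhead factor that can drive goblet cell metaplasia in the mouse airway, passed in no comparison. It stood at 4.93, 4.78 and 4.76 on the 4-week arrays, at 4.93, 5.0 and 5.18 on the OVA arrays and at 5.11, 4.93 and 4.93 on the control arrays. An identical value occurred on 4 arrays, where 27.7% of the 23410 tested probe sets repeated a value on 3 or more arrays. Every Foxa3 value lay below the array medians (6.38 to 6.45). The OVA minus control difference was 0.04 (interval -0.16 to 0.25), the 4-week minus OVA difference -0.21 (interval -0.42 to -0.01, adjusted p = 0.193) and the 4-week minus control difference -0.17 (interval -0.37 to 0.04).

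The promoter windows of Agr2 and Spdef are shown because Agr2 was the gene with the firmest call and Spdef the goblet cell factor whose OVA arrays overlapped with no other group. Agr2 lies on chromosome 12 from 35992925 to 36004081 and Spdef on chromosome 17 from 27714446 to 27731003. They come from RefSeq (assembly GRCm38.p6, a C57BL/6J sequence, whereas the mice were BALB/c) and run from 250 bases before to 50 bases after an annotated start, 5′ to 3′ on the strand of the gene. The Spdef window lies wholly inside the gene span given above, so its annotated start is not the outer 5′ end of that span. Capitals mark matches on either strand to the SPDEF core ATCCTG and the FOX core TATTTAC.

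Agr2, chr12:35992675-35992974, plus strand: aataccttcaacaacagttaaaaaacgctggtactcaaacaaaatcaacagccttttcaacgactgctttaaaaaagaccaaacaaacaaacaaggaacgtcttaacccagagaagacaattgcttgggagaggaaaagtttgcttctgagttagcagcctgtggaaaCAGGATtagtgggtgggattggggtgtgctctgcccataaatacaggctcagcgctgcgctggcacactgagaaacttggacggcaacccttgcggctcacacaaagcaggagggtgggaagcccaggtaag
Spdef, chr17:27728902-27729201, minus strand: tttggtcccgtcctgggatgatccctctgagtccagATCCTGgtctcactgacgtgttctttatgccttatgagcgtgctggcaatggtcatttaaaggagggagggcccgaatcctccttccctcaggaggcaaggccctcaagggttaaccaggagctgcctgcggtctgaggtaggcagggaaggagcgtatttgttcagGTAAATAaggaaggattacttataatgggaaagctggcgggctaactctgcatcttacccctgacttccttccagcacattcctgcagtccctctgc

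The Agr2 window held 1 match to ATCCTG, on the opposite strand and 82 to 77 bases before the start. The Spdef window held ATCCTG on its own strand 214 to 209 bases before its start, which lies inside the gene span. It held TATTTAC on the opposite strand 47 to 41 bases before that start, and these matches do not overlap. RefSeq windows were found for 6 of the 10 genes (Agr2, Spdef, Muc2, Muc4, Foxa3 and Fcgbp), and those of Muc2, Agr2 and Spdef held ATCCTG, which 16.2% of all 32851 windows held. TATTTAC occurred in 3.0% of all windows and, of the 6, in Spdef alone; the other FOX core TGTTTAC (3.6% of all windows) and the STAT6 spacing of TTC and GAA with 4 bases between them (7.0%) occurred in none of the 6.

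Counted together, 0 of the 9 measured genes reached the threshold of 0.05 for the adjusted limma p in OVA minus control, where 1.30% of the 23410 tested probe sets did. At an unadjusted p under 0.05 the count was 5 of 9 (Muc5b, Muc19, Clca1, Agr2 and Spdef), against 16.4% of all probe sets. The arrays of the groups did not overlap for 4 of 9 genes (Clca1, Agr2 and Spdef higher, Muc19 lower), against 21.5% of all probe sets. The median difference of the 9 was 0.51, against -0.02 over all tested probe sets. In 7 of the 9 the difference was above 0.

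In 4-week minus OVA, 0 of 9 passed in limma, where 6.33% of all probe sets did. At an unadjusted p under 0.05 the count was 4 of 9 (Muc2, Clca1, Spdef and Foxa3), against 23.9% of all, and each of these 4 was lower at 4 weeks. Muc5ac and Spdef had arrays that did not overlap, 2 of 9 against 28.1% of all probe sets. The median difference was -0.23, against -0.02 over all probe sets. Clca1 fell short by the smallest margin, with an adjusted p of 0.110.

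In 4-week minus control, 2 of 9 passed, Agr2 higher and Muc19 lower, a share to be read beside the 14.4% of all probe sets that passed. At an unadjusted p under 0.05 the count was 3 of 9 with Muc2 added, against 32.9% of all probe sets, and the arrays did not overlap for 3 of 9 (Agr2, Muc5b and Muc19), against 35.0% of all. The median was 0.21, against -0.04 over all probe sets. In the moderated F test for any difference among the groups, Agr2 passed (adjusted p = 0.023) and the other 8 did not, with Clca1 and Muc19 next (adjusted p = 0.0533 and 0.054); 12.4% of all probe sets passed. The Agr2 call in the F test was lost without control replicate 2 or 3 and without 4-week replicate 2.

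**Figure D2:**
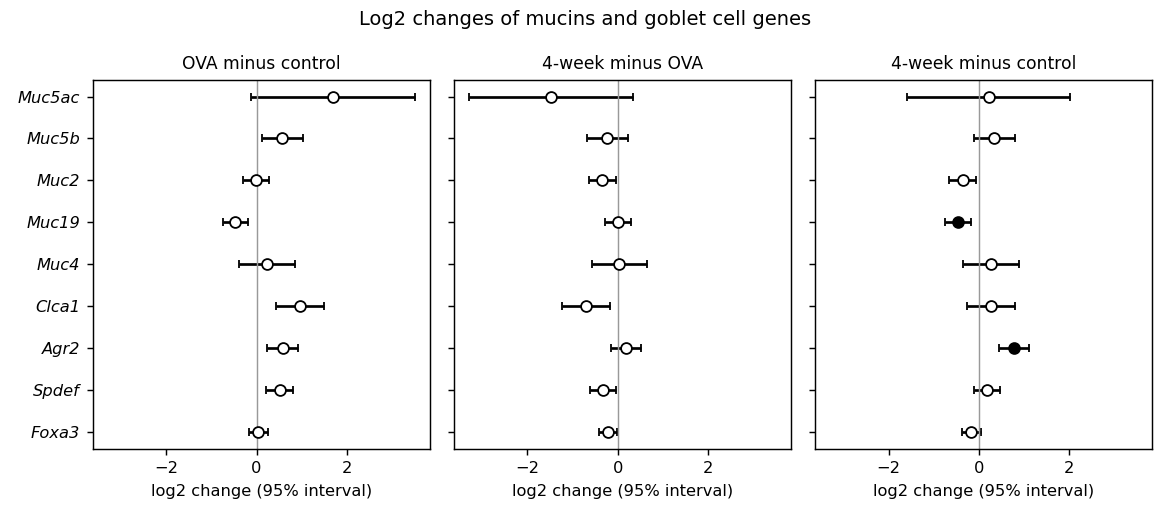
Log2 change with its 95% interval from the limma fit for the 9 measured genes for 3 differences (OVA minus control, then 4-week minus OVA, then 4-week minus control); filled points passed at an adjusted p under 0.05. Agr2 (0.77) and Muc19 (-0.47) in 4-week minus control are the filled points, and the widest intervals are those of Muc5ac.

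Whether the 9 genes vary as 1 block from array to array cannot be told from 9 arrays. Over all 36 pairs and the 9 arrays, 25 correlations were positive. An exact permutation p under 0.05 (Pearson's r, two-sided) was found for 7, and 0 passed after Benjamini-Hochberg adjustment over the 36 pairs. The permutations exchanged arrays between groups, so group differences that 2 genes share enter these p-values. The highest r was that of Clca1 and Spdef, 0.781 (exact permutation p = 0.0103, adjusted p = 0.252), with Spearman's rho 0.850 (exact permutation p = 0.00607, adjusted p = 0.194) and r = 0.746 without the 2 arrays farthest from the median of Clca1. For deviations from the group means this r was 0.315. Muc5ac and Clca1 had r = 0.757 (exact permutation p = 0.0152, adjusted p = 0.252) and rho 0.633 (exact permutation p = 0.076). Their r was 0.579 within groups and 0.497 without control replicate 3 and OVA replicate 1. Muc5b had a higher r with Agr2 than with its neighbour Muc5ac. Its r with Agr2 was 0.728 (exact permutation p = 0.0273, adjusted p = 0.252; rho 0.817, exact permutation p = 0.0108), 0.721 within groups and 0.907 without OVA replicates 1 and 3. Its r with Muc5ac was 0.559 (exact permutation p = 0.119, adjusted p = 0.388), with rho 0.467 (exact permutation p = 0.213). That r was 0.335 within groups and 0.061 without control replicate 3 and OVA replicate 1. The arrays left out were thus not the same for Agr2 and Muc5ac. The difference between these correlations was not tested.

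Some other genes followed single mucins closely over the 9 arrays; these are described by r alone, since each was picked as the closest of 17151 genes. Nearest to Muc5ac was Bpifb1, a BPI fold protein secreted by airway goblet and gland cells, with r = 0.982, and 0.936 without the 2 arrays farthest from the Muc5ac median. Bpifb1 stood at 8.58, 8.46 and 7.95 on the 4-week arrays, at 9.63, 8.59 and 8.99 on the OVA arrays and at 8.95, 8.30 and 7.01 on the control arrays, so it shared the split of the control group. Uap1l1 (0.947) and Mknk1 (0.938) came next, with 0.775 and 0.765 without those 2 arrays. Nearest to Muc5b were Gatm (0.981), Fetub (0.971) and Cdk19 (0.957), nearest to Muc19 were Nrk (0.986), Asgr1 (0.981) and Mei4 (0.977), and nearest to Clca1 were Cytl1 (0.933), Slc5a1 (0.932) and Lims1 (0.931). Without the 2 farthest arrays these 9 had r from 0.844 (Lims1) to 0.956 (Gatm). Several of these genes spanned little over the 9 arrays, such as Uap1l1 (6.38 to 6.61), Cdk19 (7.85 to 8.07) and Nrk (3.74 to 4.08).

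**Figure D3:**
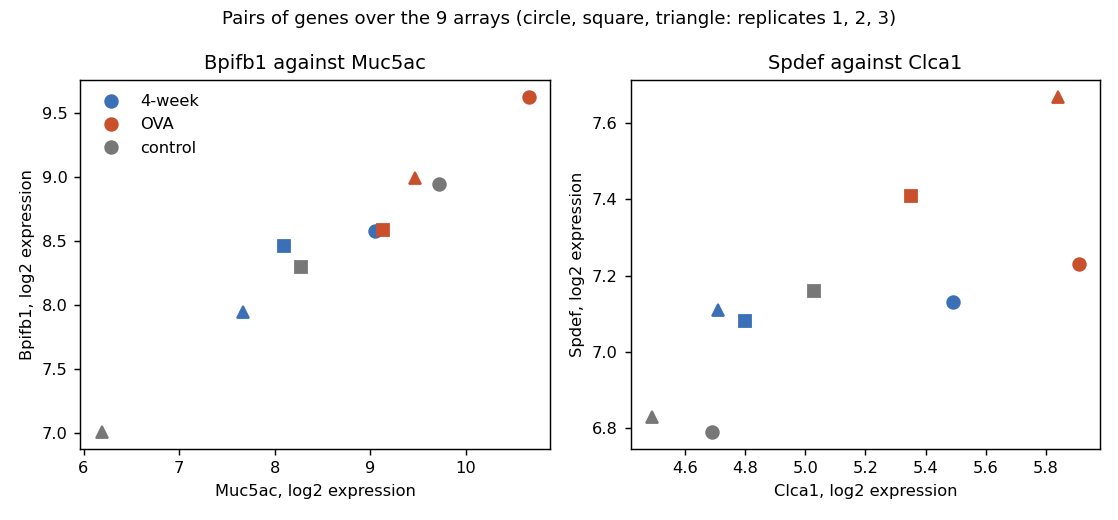
Log2 expression of Bpifb1 against Muc5ac (left) and of Spdef against Clca1 (right) on each of the 9 arrays, coloured by group, with circles, squares and triangles for replicates 1, 2 and 3. Bpifb1 followed Muc5ac down to control replicate 3 (Bpifb1 7.01, Muc5ac 6.19), and the OVA arrays lie at the upper right for Clca1 and Spdef.

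Control replicate 3 was the lowest of the 9 arrays for Muc5ac, Muc5b, Muc4 and Clca1, and the highest for Muc2. It also had the lowest summed signal of the basal and columnar epithelial markers (11.99) and of 7 leukocyte markers (8.73), the second lowest of 10 ciliated cell markers (10.83, where OVA replicate 3 had 10.70), and the highest of the olfactory neuron markers (14.41). Of 7 squamous epithelial markers 1 passed, in 4-week minus OVA, where 6.33% of all probe sets passed. It was Sprr1a, a protein of the cornified cell envelope, which fell by 2.72 on the log2 scale (adjusted p = 0.0422). This call was lost in 7 of 9 fits that left out an array (adjusted p up to 0.139) and in 3 of 9 other alternatives. The median of the 7 in that comparison was -0.19, and Krt4, a keratin of squamous cells, had 0.35 (adjusted p = 0.243). Sprr1a stood at 8.95 to 9.87 on the OVA arrays and at 6.64 to 6.98 on the 4-week arrays. On control replicates 1, 2 and 3 it stood at 9.45, 6.84 and 6.59, so control replicate 1 lay within the OVA range. The summed squamous signal was 9.99, 8.31 and 8.25 on the same control arrays. The part of these in the mucin values was not tested.

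Of 9 measured other mucin genes, none passed in OVA minus control, 4-week minus OVA or 4-week minus control. Of all probe sets 1.30%, 6.33% and 14.4% passed in these comparisons, so 0 of 9 says little about these genes. Their medians were -0.03 between OVA and control, -0.06 between 4-week and OVA and -0.11 between 4-week and control. Muc1, a membrane mucin that also signals, stood out by size: it lay at 8.65, 8.74 and 8.67 on the 4-week arrays, at 9.57, 9.21 and 9.33 on the OVA arrays and at 8.94, 8.32 and 7.48 on the control arrays. OVA arrays lay above all others, with a difference from control of 1.12 (SE 0.30, adjusted p = 0.116). Muc16, another membrane mucin, had -0.18 in OVA minus control (adjusted p = 0.515).

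Of 17 genes that accompany mucins in goblet and secretory cells, none passed in OVA minus control (median 0.07) or in 4-week minus OVA (median -0.12). Of all probe sets 1.30% and 6.33% passed there. In 4-week minus control 1 of the 17 fell (median -0.08), where 14.4% of all probe sets passed. That gene was Best2, a bicarbonate channel of colonic goblet cells (-0.33, adjusted p = 0.047), and its call was lost in 7 of 9 fits without an array. In OVA minus control Bpifb1 had 0.98 (adjusted p = 0.328) and Pigr, the receptor that carries IgA into mucus, 0.60 (adjusted p = 0.397).

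Of 16 folding and glycosylation genes, none passed in OVA minus control, where 1.30% of all probe sets did. In 15 of the 16 the difference was above 0 (median 0.21, against -0.02 over all probe sets). In the same comparison 7 of the 8 epithelial markers were above 0 (median 0.29), and their part in the folding gene values was not tested. In 4-week minus OVA 1 of the 16 fell (median -0.11), near the 6.33% of all probe sets that passed, and in 4-week minus control 2 rose (median 0.16), near the share of 14.4%. C1galt1, which makes the core 1 O-glycan, stood at 8.63, 9.04 and 8.66 on the 4-week arrays and at 8.86, 8.38 and 8.42 on the OVA arrays, against 7.95, 7.78 and 7.78 on the control arrays. As for Agr2, all control arrays lay below all others. C1galt1 rose by 0.94 at 4 weeks against control (SE 0.15, adjusted p = 0.00666) and had 0.72 in OVA (adjusted p = 0.0635). Pdia3, a disulfide isomerase of the endoplasmic reticulum in many cell types, rose by 0.72 (adjusted p = 0.01), with 10.45, 10.54 and 10.45 on the 4-week arrays against 9.89, 9.69 and 9.69 on the control arrays. Fut2, a fucosyltransferase of mucosal glycans, fell by 0.63 on the log2 scale at 4 weeks relative to OVA (7.41, 7.87 and 7.36 against 8.34, 8.01 and 8.19, adjusted p = 0.0468), a call lost in 7 of 9 fits without an array. Tmed3, a cargo receptor of the early secretory pathway, had 0.43 in OVA minus control (adjusted p = 0.0844).

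Of 10 genes of granule exocytosis, none passed in OVA minus control (median 0.12) or 4-week minus OVA (median 0.00). The shares of all probe sets were 1.30% and 6.33% there. In 4-week minus control 1 of the 10 rose (median 0.11), where 14.4% of all probe sets passed. That gene was Marcks, an actin-binding protein involved in mucin release, which rose by 0.70 (SE 0.12, adjusted p = 0.00848). Snap23, a membrane fusion protein, had 0.42 in OVA minus control (adjusted p = 0.192). The calls of C1galt1, Pdia3 and Marcks against control were lost in none of the alternatives run, with or without an array. Every alternative used control arrays of the female pattern, so treatment and sex pattern cannot be told apart in these calls.

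Among 22 measured regulators of goblet cell differentiation, 1 rose in OVA minus control (median 0.17), none passed in 4-week minus OVA (median -0.06) and 2 rose in 4-week minus control (median 0.09). These counts stand beside 1.30%, 6.33% and 14.4% of all probe sets in the same comparisons. Elf3, an epithelial ETS factor, stood at 8.23, 8.62 and 7.79 on the OVA arrays against 7.21, 7.20 and 6.69 on the control arrays. It rose by 1.18 in OVA (SE 0.23, adjusted p = 0.0457), but the call was lost in 8 of 9 fits without an array (adjusted p up to 0.143). Il4ra, the receptor subunit shared by IL-4 and IL-13, had 0.83 in OVA (SE 0.17, adjusted p = 0.0537) and -0.52 in 4-week minus OVA (adjusted p = 0.0998). The OVA difference of Il4ra passed with the upper 60% of probe sets by mean (adjusted p = 0.0392), with 1 probe set per gene (adjusted p = 0.0451) and with a trended robust prior (adjusted p = 0.0432). At 4 weeks against control, Il13ra1, its partner in the IL-13 receptor, rose by 0.62 (adjusted p = 0.0112). Ehf, another epithelial ETS factor, rose by 0.83 (adjusted p = 0.013). Neither call was lost in any alternative run, and every alternative used control arrays of the female pattern.

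**Figure D4:**
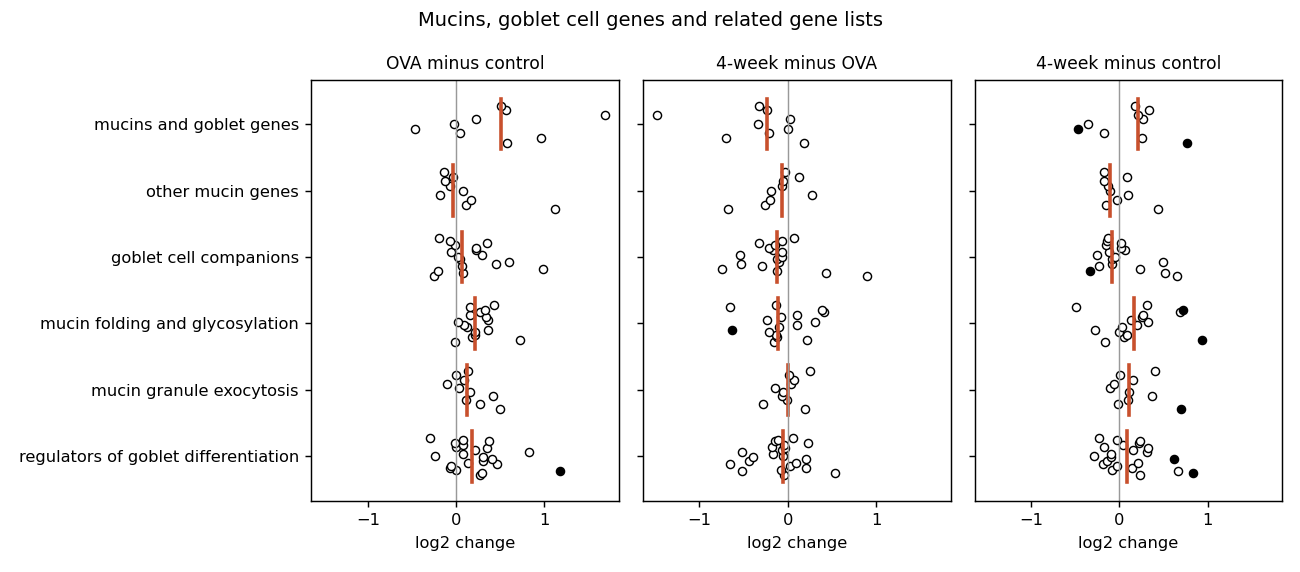
Log2 change of each measured gene in the 9 mucins and goblet cell genes and in 5 related lists, for 3 differences (OVA minus control, then 4-week minus OVA, then 4-week minus control); filled points passed at an adjusted p under 0.05 and the orange-red bars are the medians. In OVA minus control the 9 mucins and goblet cell genes have a median of 0.51 with no filled point, and Elf3 (1.18) is the only filled point.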

How the data were processed

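Biotin-labelled cRNA was made from total RNA of each nasal mucosa sample, per the labels' protocols. The authors deposited RMA values on a log2 scale, 1 for each probe set and array, per the submitters' processing notes; the log2 scale was taken from the values (1.63 to 13.83), and which software ran RMA is not given in the sources used here. Of 35556 rows, 23410 carry a gene symbol in the platform annotation and were tested, 21789 of them with 1 gene. Current symbols came from a RefSeq table of GRCm38.p6 by Entrez number (21698 matched).

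A mean per group was fitted over all 9 arrays together with limma 3.58.1 (R 4.3.3) and moderated by eBayes (6 residual and 2.98 prior degrees of freedom). The two-sided p-values were adjusted by Benjamini-Hochberg over the 23410 probe sets, with a threshold of 0.05; intervals are 95% intervals of that fit. The fit was tested on simulated data: of 50 probe sets changed 1.5-fold in OVA minus control it recovered 70%, of those changed 2-fold 88%. The simulated noise was normal and independent from array to array, and the changed probe sets were picked at random. These rates therefore do not say how likely a call was for a given gene here. Named genes were all 10 listed genes, the members of 5 related lists that passed in a comparison and the 2 of each list with the largest OVA minus control change, and for 4 genes the 3 closest in pattern. Epcam, Krt18, Krt4, Sprr1a, Bpifb9a, Bpifb9b, Gnal, Smgc and the genes of the sex pattern were named after their values were seen. The members and lists were chosen with earlier results of these data known. Alternatives were quantile normalisation, median centring, all rows, named or not, a single probe set for each gene, the 60% of probe sets with the highest means, the compared groups only, a trended robust prior, array weights, the replicate number as a block, the mean of a gene's probe sets, and leaving out each array. The number of arrays limits the precision.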

Additional observations from a re-analysis of the deposited data

How the results depend on the processing

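Of 480 recomputed log2 changes of the 9 genes, 447 kept their direction and their side of the threshold. The count in 4-week minus control was 1 instead of 2, Agr2 alone, with median centring, the upper 60% of probe sets, every row, the compared groups only, array weights, the mean of all probe sets of a gene and the replicate block, and between 1 and 2 when an array was left out. After quantile normalisation it was 2 with Muc2 in place of Muc19. With the replicate block the calls of Muc19 (adjusted p = 0.0559) and Gnal (0.0592) in 4-week minus control were lost. Those of Fut2 (0.0603) and Sprr1a (0.0584) in 4-week minus OVA and of Bpifb9a in OVA minus control (0.0549) were lost too. Elf3 passed in 4-week minus control (0.0199) with that block. Muc5ac in OVA minus control had an adjusted p of 0.134 with it. The labels do not say what a replicate number stands for. Deviations from the group means correlated at -0.044 to 0.332 for same-numbered arrays, against -0.358 to 0.265 for other numbers. Of the 9 arrays, 7 correlated best with one of their own number. Such deviations cancel out within a group, which sets the same-numbered and other correlations against each other. Whether arrays were paired was not tested, and the block was kept as an alternative because the labels state no pairing. The count for any difference among groups was 2 with the upper 60% of probe sets (Agr2 and Spdef) and between 0 and 2 without an array. Without an array the count lay between 0 and 1 both for OVA minus control (Muc5b without OVA replicate 2, Clca1 without 4-week replicate 1) and for 4-week minus OVA (Clca1 without 4-week replicate 1). Some differences changed sign without passing. In 4-week minus OVA this was so for Krt18 (0.05) and Snap23 (0.0033) with median centring, for Muc4 (-0.0039) and Pigr (0.05) with array weights, and for Muc19 (-0.04) with the mean of its probe sets. With an array left out, the 4-week minus OVA ranges were -0.17 to 0.19 for Muc4, -0.08 to 0.06 for Muc19, -0.09 to 0.043 for Krt18, -0.40 to 0.10 for Pigr and -0.18 to 0.029 for Snap23. The 4-week minus control ranges were -0.73 to 1.04 for Muc5ac, -0.041 to 0.49 for Muc4, -0.30 to 0.67 for Bpifb1, -0.0014 to 0.15 for Muc16 and -1.36 to 0.07 for Sprr1a (-0.84 with all arrays). The OVA minus control ranges were -0.07 to 0.45 for Muc4, -0.11 to 0.08 for Muc2 and -0.025 to 0.11 for Foxa3. The upper 60% held 6 of the 9 genes, leaving out Muc19, Clca1 and Foxa3. The cause of these changes was not tested.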
